A study of Homo sapiens with 12 samples.

Results

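The comparison described here is that of A549 cells carrying both changes of the study, knockout of YTHDF1 and silencing of ARID1A by small interfering RNA (siRNA), with unmodified A549 cells (WT). It rests on the 3 libraries of the combined group and the 3 WT libraries, 6 of the 12 libraries of the series, chosen by their columns in the deposited count table, and on the 18524 genes that passed a filter on low counts, of 60617 in the table. A549 is an established human lung adenocarcinoma line, grown here in RPMI 1640 with serum. The other 6 libraries are 3 with the YTHDF1 knockout alone (YTHDF1 KO) and 3 with ARID1A silencing alone (siARID1A). They serve to place the combined group. They also enter the shared fit, so the filter and the spread behind every p-value come from all 12 libraries. The genotype field names a knockout of YTHDF1 while the titles name a knockdown, and whether the edited cells are a clone or a pool is not given in the sources used here. No label names a control siRNA, so effects of transfection and of ARID1A silencing cannot be told apart. The titles call the replicates biological but do not say what was repeated, whether culture, editing or transfection, so the p-values measure the spread between these libraries.

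YTHDF1 is a cytoplasmic reader protein that binds RNA carrying N6-methyladenosine (m6A), the most common internal mark of messenger RNA. ARID1A is the DNA-binding subunit of the canonical BAF form of the SWI/SNF chromatin remodeller and is often lost in carcinomas. The title of the series names R-loops, hybrids of RNA and DNA that form behind RNA polymerase, together with innate and adaptive immunity. In an epithelial cell, foreign or misplaced nucleic acid is bound by sensors such as RIG-I, MDA5 and cGAS. They switch on interferon genes, and secreted interferon then acts through the JAK-STAT pathway on interferon-stimulated genes, whose products block viral replication, attract T cells and raise antigen presentation.

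Library totals were 30220717 to 41396019 counts in the combined group and 33970369 to 45042635 in WT, and levels are given as CPM, counts scaled to a common library total with TMM factors. Fold changes are log2 values with standard errors (SE), and a gene was called where the Benjamini-Hochberg adjusted p of edgeR's quasi-likelihood F test was below 0.05. WT replicate 2 stood apart from the other WT libraries: mitochondrial transcripts took 4.85% of its counts against 7.90% and 8.23% in WT replicates 1 and 3, and 6.91% to 7.44% in the combined libraries. Without it, 4646 genes were called higher and 4620 lower, against 4742 and 4795 with it. Of the epithelial and A549 markers, AKR1B10, KRT8 and KRT18 were abundant in WT, CDKN2A, which is deleted in A549, had 8 counts over all WT libraries and 0 in the combined ones, and KRT19 and EPCAM were low. Markers of blood, stromal, endothelial and neural cells summed to 46.8 to 75.2 CPM over 29 genes in WT and to 57.2 to 71.8 CPM in the combined group, where 11 of the 29 had no count. Of the 11 markers tested 4 were called higher and 1 lower, against 25.6% and 25.9% of all genes tested. Single markers differed in both directions. Counts over the WT and the combined libraries were 488 and 1760 for neural RBFOX3, 9 and 62 for endothelial PECAM1 and 4 and 47 for CSF1R. They were 481 and 226 for neural TUBB3 and 14 and 2 for endothelial VWF. CD3D, CD2 and MYOD1 were at 0 in all 12 libraries. In bulk libraries, fewer cells of a kind and less RNA per cell cannot be told apart.

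Both targeted transcripts were lower in the combined group. YTHDF1 (ENSG00000149658, minus strand of chr20:63195429-63216234 in GRCh38) stood at 88.2, 90.7 and 85.5 CPM in WT replicates 1 to 3 and at 32.2, 30.4 and 30.2 CPM in the combined libraries, so the groups did not overlap. The difference was −1.51 ± 0.038 (log2, SE, n = 3 against 3, adjusted p = 1.26e-14 in the fit of all 12 libraries). With the WT and combined libraries only, the adjusted p of the same test was 4.59e-11. ARID1A (ENSG00000117713, plus strand of chr1:26693236-26782110) stood at 168, 175 and 148 CPM in WT and 46.7, 58.3 and 57.6 CPM in the combined libraries, a difference of −1.60 ± 0.13 (adjusted p = 7.06e-14). The residual levels were above those of the single changes: YTHDF1 was 0.31 on the log2 scale above YTHDF1 KO (adjusted p = 0.00323), and ARID1A was 0.35 above siARID1A (adjusted p = 0.00214). Among relatives, the m6A reader YTHDF3 was 0.25 higher (adjusted p = 0.00152). For YTHDF2, the third reader of this family, the difference was −0.01 ± 0.028 (0.13 when libraries were scaled by their totals alone), and for ARID1B, the paralog that can take the place of ARID1A in BAF, it was 0.05 ± 0.09, and neither passed the test.

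The genes with the largest rises belonged to the interferon response, and the sequence that interferon-activated factors bind is shown first because 7 of the 8 largest rises with a promoter entry held it. Factors of the IRF and STAT families bind the interferon-stimulated response element (ISRE), whose core was searched on both strands as TTTC, 2 bases of any kind and TTTC again in RefSeq promoter windows (GRCh38.p14) of 250 bases before to 50 bases after a gene start. Where a gene had several windows, the first listed was used. A promoter was found for 12359 of the genes tested and for 152 of the 200 named genes. The stretches below lie upstream of the start, read 5′ to 3′ on the gene's strand, with matches on either strand in capitals. TENM2, at the end, is a gene that fell.
IFIT1: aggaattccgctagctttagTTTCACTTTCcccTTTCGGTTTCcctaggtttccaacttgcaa
IFIT3: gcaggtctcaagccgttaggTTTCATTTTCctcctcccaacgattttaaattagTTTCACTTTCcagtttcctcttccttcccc
IFI6: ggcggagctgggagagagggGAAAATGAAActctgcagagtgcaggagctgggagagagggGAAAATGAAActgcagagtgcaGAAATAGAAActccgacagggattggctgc
IFI27: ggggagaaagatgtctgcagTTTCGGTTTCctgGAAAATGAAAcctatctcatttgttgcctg
ISG15: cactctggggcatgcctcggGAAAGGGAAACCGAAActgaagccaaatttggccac
IFIH1: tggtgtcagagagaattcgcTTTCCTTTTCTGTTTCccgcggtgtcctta
CXCL10: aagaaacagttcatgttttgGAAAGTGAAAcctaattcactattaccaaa
IFNL1: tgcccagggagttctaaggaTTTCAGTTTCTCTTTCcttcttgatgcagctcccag
B2M: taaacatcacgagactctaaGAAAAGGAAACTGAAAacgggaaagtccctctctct
CD274: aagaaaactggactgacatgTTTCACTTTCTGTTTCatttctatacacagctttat
TENM2: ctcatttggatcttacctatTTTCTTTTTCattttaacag
They are plus-strand chr10:89392487-89392549 for IFIT1, plus-strand chr10:89327821-89327904 for IFIT3, minus-strand chr1:27672256-27672368 for IFI6, plus-strand chr14:94110608-94110670 for IFI27, plus-strand chr1:1013364-1013419 for ISG15, minus-strand chr2:162318814-162318863 for IFIH1, minus-strand chr4:76023689-76023738 for CXCL10, plus-strand chr19:39296173-39296228 for IFNL1, plus-strand chr15:44711353-44711408 for B2M, plus-strand chr9:5450314-5450369 for CD274 and plus-strand chr5:167073202-167073241 for TENM2. In ISG15, IFIH1, IFNL1, B2M and CD274 the 2 matches overlap and form a longer run, while IFI6 holds 3 separate matches.

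The ISRE letters were in 2.88% of the promoters of all tested genes (356 of 12359) and in 2.62% of those of genes not called. They were in 7.57% of the promoters of genes with a called log2 fold change above 1 (86 of 1136), and in 2.19% of those with one below −1 (18 of 821). In the list of interferon-stimulated genes 27 of 39 promoters held them, and in the MHC class I list 9 of 17. Of the 356 tested genes with the letters, 41.6% were called higher and 19.4% lower, against 28.0% and 28.9% of the 12003 without. A second motif, the core of the antioxidant response element that NRF2 binds (TGACNNNGC), was in 15.1% of all promoters, in 159 of the 1136 of genes with rises past 1 and in 14.4% of those with falls past 1. Both motifs were in 60 promoters. Of the 12 largest rises 8 had a promoter entry and 7 of these held the ISRE letters, and of the 12 largest falls 8 had an entry and 1, TENM2, held them. A match is a description of these windows and not evidence of a bound site.

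Across all genes tested, 4742 (25.6%) were called higher and 4795 (25.9%) lower in the combined group than in WT, which is 51.5% of the genes. Of these, 1752 (9.46%) were higher and 1355 (7.31%) lower by a log2 fold change larger than 1. Libraries of the 2 groups did not overlap, called or not, for 28.2% of genes in the higher and 27.9% in the lower direction. The median over all genes was −0.01, with quartiles at −0.42 and 0.43. When libraries were scaled by their totals alone (library totals), the median became 0.13, and the calls split into 6072 higher and 3506 lower, so that 63.4% rather than 49.7% of the calls were rises. Values near 0 are therefore relative to the scaling, and where it decides a group's count the second count is given. The counts of every gene list below are to be read beside the 25.6% and 25.9% of all genes called higher and lower. Of the 200 named genes, 14 share over 20% of their exon bases with other annotated genes, and their counts are uncertain: among those described here, MTHFD2 shares 33.2%, PDIA6 25.2%, PSMB8 20.6%, TIGAR 45.6% and ERCC4 25.7%.

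**Figure D1:**
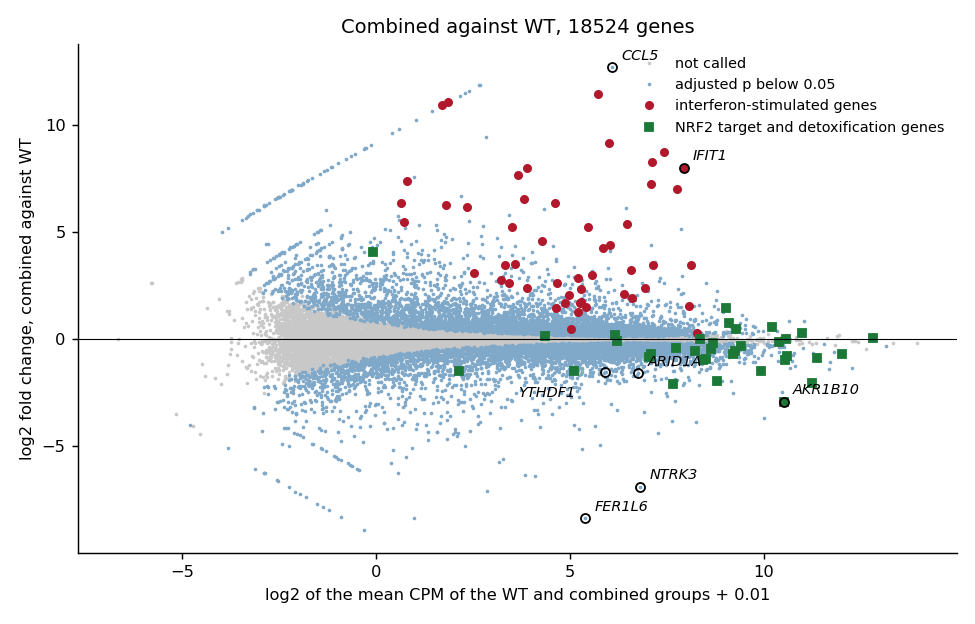
Log2 fold change of the combined group against WT (vertical axis) for each of the 18524 genes tested, against the log2 of the mean CPM of the 2 groups (horizontal axis). Grey points were not called and blue points were. Red circles are the 50 interferon-stimulated genes tested, all above 0, and green squares are the 35 NRF2 target and detoxification genes, 22 of them called lower. Genes on the slanted upper edge had no or almost no counts in WT, so their fitted values are no measured folds.

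All 50 of the 50 interferon-stimulated genes tested rose, where 25.6% of all genes did. They were all higher than in YTHDF1 KO as well (12.5% of all genes), and 49 were higher in the combined group than in each of the other 3 groups, where 3.49% of all genes were. Their median change was 3.50. Of the 50 genes, 3 had 0 to 3 counts over the WT libraries and could not be called lower. Among all genes tested 119 had so few WT counts, and 107 of these were called higher and 0 lower. Setting the 3 genes to their bounds could not move the median, as the bounds lie far above it. Against the same WT libraries the median was 2.17 in YTHDF1 KO and 1.22 in siARID1A. The largest change was that of OAS2 (11.46, on 4 WT counts). The list was chosen with earlier results of these data known, so its share of rises is a description and no independent support. SLFN11, an interferon-inducible gene kept in the R-loop list, fell. Of the 52 on the list, IRF9 and ZBP1 were not tested, with 2 counts each over WT and 6 and 18 over the combined libraries. IRF9 shares 48.4% of its exon bases with other annotated genes, for which the counting is uncertain.

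IFIT1 binds foreign RNA ends and blocks their translation. It stood at 1.95, 1.68 and 2.07 CPM in WT and 511, 458 and 492 CPM in the combined libraries, with 159 CPM in YTHDF1 KO and 12.2 CPM in siARID1A (means, n = 3). All 3 combined libraries were far above every other library, and the change was 8.01 ± 0.099 (adjusted p = 6.02e-25). Its neighbours IFIT2 and IFIT3 act in the same complex. IFIT2 stood at 0.799, 0.53 and 1.13 CPM in WT and 386, 308 and 338 CPM in the combined group, a change of 8.76. IFIT3 went from 1.67, 1.41 and 2.39 CPM to 292, 251 and 270.1 CPM, a change of 7.25. The WT and combined libraries of both genes did not overlap, which was a condition for the largest rises, and YTHDF1 KO lay between them.

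The 2′-5′ oligoadenylate synthetases make the messenger that activates RNase L. OAS2 had 0.0499, 0.0442 and 0 CPM in WT and 103, 103 and 111 CPM in the combined libraries (11.46 ± 0.30), and it rose by 2.198 over YTHDF1 KO. With so few WT counts, the SE of OAS2 understates the uncertainty of its fold change. Its relative OASL, which instead aids RIG-I, had 0.849, 0.751 and 1.13 and 299.5, 268 and 265 CPM (8.28 ± 0.17). The antiviral GTPase MX1 had 0.0999, 0.0884 and 0.565 CPM in WT, where replicate 3 was the highest, and 131, 119 and 136 CPM in the combined libraries (9.15 ± 0.69). IFI6, a mitochondrial and endoplasmic reticulum protein, went from 2.95, 3.87 and 3.17 to 451, 434 and 412 CPM (7.01 ± 0.12). ISG15, the ubiquitin-like modifier of the response, went from 4.82, 2.94 and 4.897 to 190.3, 169.6 and 158 CPM (5.37 ± 0.25). In each of these genes the lowest combined library exceeded the highest WT library.

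IFI27, IFI44, IFI44L and CMPK2 were also among the 12 largest rises, as was the chemokine CCL5, described with the chemokines. IFI27, a small mitochondrial protein, stood at 0.549, 0.575 and 0.691 CPM in WT and 49.2, 50.5 and 46.9 CPM in the combined group (6.34). Its mean was 10.1 CPM in YTHDF1 KO and 1.06 CPM in siARID1A, so the combined group was 2.28 above the former and 5.52 above the latter. IFI44 (8.01) and IFI44L (7.66) went from 0.121 and 0.136 CPM to 29.6 and 25.02 CPM. CMPK2, a nucleotide kinase beside RSAD2 on chromosome 2, went from 0.304 to 27.97 CPM (6.53).

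**Figure D2:**
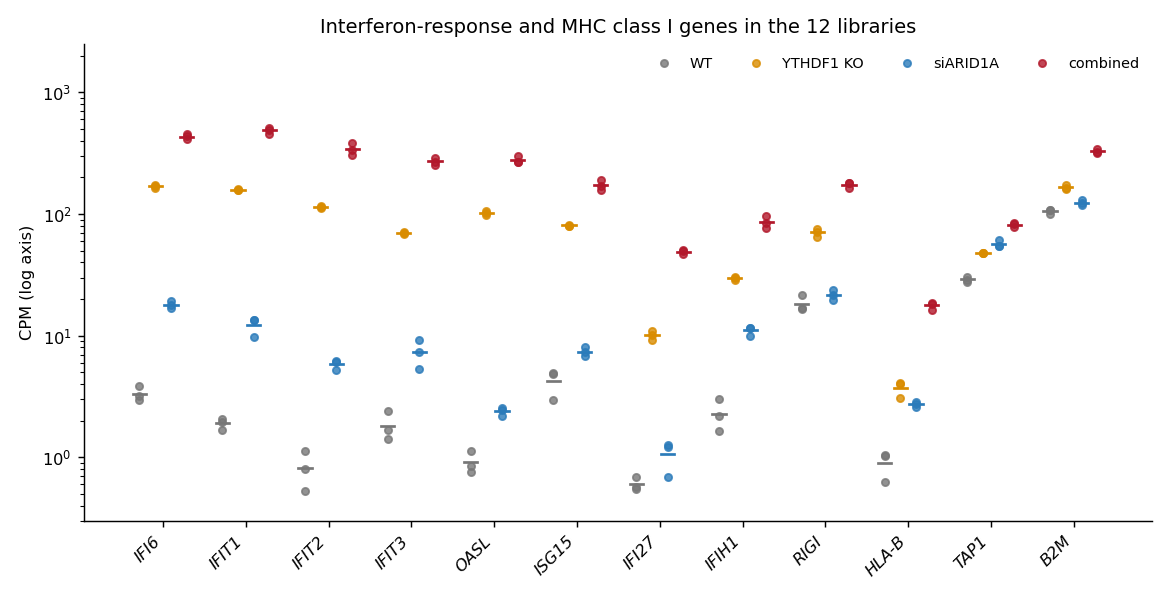
CPM (vertical log axis) of 12 interferon-response and MHC class I genes in every library, with 3 points per group (grey WT, orange YTHDF1 KO, blue siARID1A, red combined) and a line at each group's mean. The 3 combined libraries lie above the other 9 in each gene, from 16.2 to 18.7 CPM for HLA-B up to 458 to 511 CPM for IFIT1.

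A type I and 3 type III interferon genes had no counts in WT and were present in the combined group. IFNB1, a type I interferon that epithelial cells make early, had 0 counts over the WT libraries and 6.55, 4.92 and 4.79 CPM in the combined ones, at least 208-fold higher when WT is set to 3 counts over its libraries. The type III interferons IFNL1, IFNL2 and IFNL3, which act on epithelial surfaces, also had 0 WT counts. They reached 10.8, 9.25 and 9.55 CPM for IFNL1, 11, 7.05 and 8.92 CPM for IFNL2 and 15.99, 11.8 and 10.7 CPM for IFNL3, at least 382-fold, 344-fold and 491-fold higher. IFNL2 and IFNL3 are near-identical neighbours on chromosome 19, so reads may be split between them, and IFNL1 is a more distant relative beside them. Their means in YTHDF1 KO were 3.37, 2.49 and 4.096 CPM, and each was higher in the combined group by the test. Of the 15 interferon and receptor genes tested, 9 rose and 2 fell, and 1 fell with library totals, without WT replicate 2 or without combined replicate 1. The 4 interferon genes without WT counts are among the 9 and could not be called lower.

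Among the effectors, GBP4 and XAF1 also had no WT counts. GBP4, a guanylate-binding GTPase, reached 12.9, 11.97 and 13 CPM (at least 491-fold higher), and XAF1, a pro-apoptotic interferon target, reached 6.15, 7.43 and 8.16 CPM (at least 286-fold higher). XAF1 shares 38.3% of its exon bases with other annotated genes.

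Among 21 genes of RNA and DNA sensing, 13 rose and 3 fell (14 and 1 with library totals). The RNA sensor MDA5 (IFIH1, chromosome 2) went from 2.198, 1.64 and 3.01 to 95.5, 77.4 and 84.5 CPM (5.26 ± 0.26), and RIG-I (RIGI, chromosome 9) from 16.7, 16.8 and 21.5 to 179, 164 and 179 CPM (3.25 ± 0.13). Their regulator DHX58 went from 0.088 to 6.88 CPM. The nuclear DNA sensor IFI16 went from 1.55, 1.86 and 1.54 to 13.2, 14.4 and 14.7 CPM (3.09). STING1, the adaptor of the cytosolic DNA pathway, stood at 0.0999, 0.486 and 0.439 CPM in WT and 4.95, 3.61 and 4.23 CPM in the combined group (3.63 ± 0.60). CGAS, which makes the messenger that activates STING, had 0.0999, 0 and 0 CPM in WT and 0.125, 0.0469 and 0.101 CPM in the combined libraries, and its change (1.30 ± 0.56, adjusted p = 0.388) was not detectable at these counts.

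Of 12 chemokines tested 10 rose and none fell, with a median change of 2.33. Of the 12, 3 had 0 to 3 counts over the WT libraries and could not be called lower. CCL5, which draws T cells, had 2 counts over the WT libraries and 15513 over the combined ones, at 156, 133 and 122 CPM, a ratio of 7951 (95% exact binomial counting interval 2201 to 65660). Its mean was 44.8 CPM in YTHDF1 KO and 0.243 CPM in siARID1A. CXCL10 and CXCL11, ligands of the chemokine receptor CXCR3 on T cells, were likewise at or near 0 in WT. CXCL10 had 0 WT counts and 11.1, 10.3 and 10.02 CPM in the combined group (at least 407-fold higher), and CXCL11 had 2 WT counts and 16.3, 12.3 and 13.9 CPM, a ratio of 818 (interval 226 to 6757). The neutrophil chemokine CXCL1 was present in all WT libraries and went from 8.22, 9.94 and 10.3 to 92.2, 87.5 and 79.7 CPM (3.19 ± 0.12). Against YTHDF1 KO, the combined group was 0.38 higher for CXCL1 and 1.54 higher for CXCL11, and the difference between these genes was not tested.

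Cytokines moved in both directions, with 9 of 15 higher and 3 lower. Of the 15, 1 had 0 to 3 WT counts and could not be called lower. IL6 went from 0.249 to 3.99 CPM (4.02 ± 0.59), and TNFSF10, the death ligand TRAIL, from 0.218 to 3.26 CPM (3.86). IL11, a fibroblast-acting member of the IL-6 family, instead fell from 56.3, 63.2 and 46.9 to 11.2, 11.6 and 12.3 CPM (−2.24 ± 0.13), and the inflammasome product IL18 fell from 88.3 to 58.9 CPM (−0.58). Of 21 NF-kB subunits and response genes 15 rose and 2 fell. The subunit NFKB2 went from 79.7, 77.8 and 76.5 to 245, 206 and 235 CPM (1.55), with 236 CPM in siARID1A alone. NFKBIZ, a nuclear co-regulator, rose by 1.71, the superoxide dismutase SOD2 by 1.47 and IER3 by 1.58. IL6 and IER3 share 20.7% and 26.5% of their exon bases with other genes.

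Most genes of MHC class I antigen presentation rose: 17 of 21 genes were higher and 2 lower, and 16 were also higher than in YTHDF1 KO (12.5% of all genes) and 15 higher than in siARID1A (18.2% of all genes). B2M, the invariant light chain, stood at 108, 100.4 and 108 CPM in WT and 341, 325 and 319 CPM in the combined libraries (1.64 ± 0.045, adjusted p = 3.4e-16). The heavy chain HLA-B went from 0.624, 1.02 and 1.04 to 18.7, 16.2 and 18.3 CPM (4.31 ± 0.23), although reads of HLA genes can be shared among close relatives. The peptide transporter TAP1 went from 30.4, 28.8 and 27.8 to 83.4, 77.6 and 84.4 CPM (1.49), and the immunoproteasome subunit PSMB8 from 6.89, 6.25 and 5.74 to 28.6, 26.1 and 24.1 CPM (2.05). In these 4 genes the combined libraries did not overlap with those of WT.

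Surface regulators of immunity were mixed, with 10 of 19 higher and 3 lower. Of the 19, 2 had 0 to 3 WT counts and could not be called lower. The falls numbered 5 without WT replicate 3 or without combined replicate 2. CD274, which encodes the checkpoint ligand PD-L1 on chromosome 9, went from 0.599, 0.663 and 0.753 to 3.104, 3.91 and 3.68 CPM (2.41 ± 0.13) and stayed at a low level. CD55, which protects cells from complement, was far more abundant, at 47.9, 53.6 and 63.4 CPM in WT and 472, 385 and 411 CPM in the combined group (2.94 ± 0.15), and was higher than in each other group. CEACAM1 rose by 4.47, the ecto-nucleotidase NT5E by 1.04 and the TIGIT ligand NECTIN2 by 0.73. NECTIN2 stood at 134, 123 and 123 CPM in WT and 211, 211 and 209.8 CPM in the combined libraries.

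**Figure D3:**
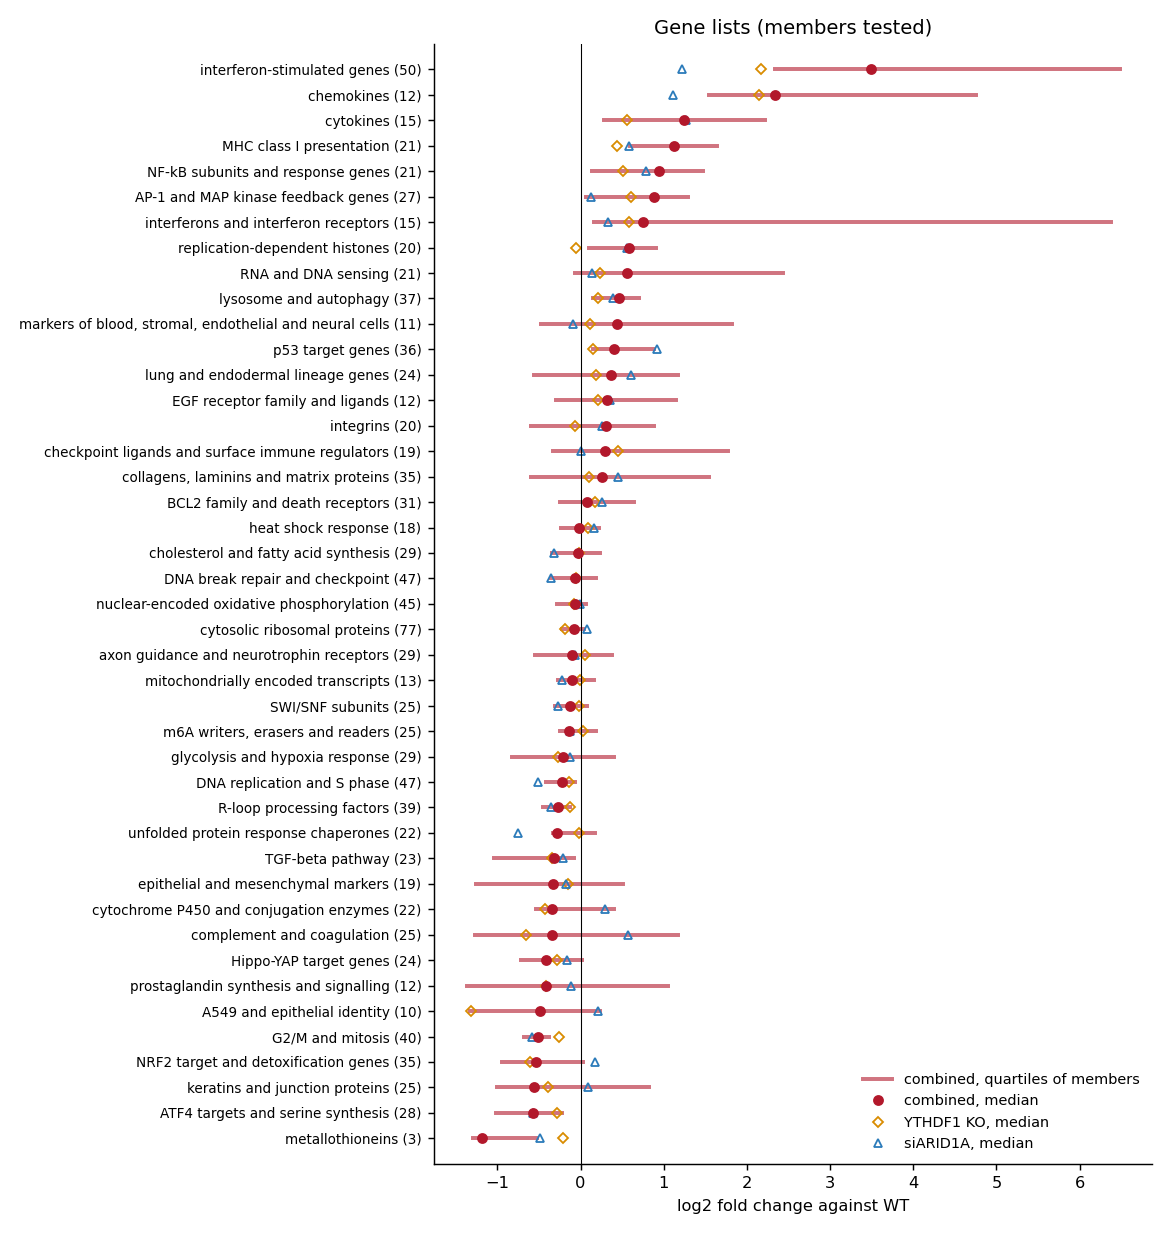
Median log2 fold change against WT of the tested members of each gene list (number in brackets) in the combined group (red circles, with bars from the lower to the upper quartile of members), YTHDF1 KO (open diamonds) and siARID1A (open triangles). All 3 groups share the WT libraries. Interferon-stimulated genes stood highest at 3.50, and the 3 metallothioneins lowest at −1.19.

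The largest falls included a ferlin, a teneurin, a receptor tyrosine kinase and a cytochrome P450. FER1L6, a ferlin family gene on chromosome 8, stood at 81.7, 83.04 and 87.1 CPM in WT and 0.0941, 0.281 and 0.353 CPM in the combined libraries (−8.35 ± 0.45), with 0.193 CPM in YTHDF1 KO and 0.272 CPM in siARID1A. The teneurin TENM2, a cell adhesion protein, went from 35.5, 34.5 and 32.2 CPM in WT to 0.251, 0.375 and 0.554 CPM (−6.40 ± 0.29), with 0.768 and 0.272 CPM in the single-change groups. The neurotrophin receptor NTRK3 went from 219, 252 and 200.2 to 1.88, 2.58 and 1.16 CPM (−6.89 ± 0.34), with 1.81 CPM in YTHDF1 KO and 33.4 CPM in siARID1A. CYP4F11, a fatty acid hydroxylase, went from 31.99, 24.9 and 27.8 to 0.376, 0.234 and 0.428 CPM (−6.35). Against YTHDF1 KO, TENM2 was lower in the combined group (adjusted p = 0.0216), and for FER1L6, NTRK3 and CYP4F11 no difference was called.

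SLFN11, an interferon-inducible factor that blocks stressed replication forks, fell against the direction of the interferon genes, from 34.3, 38.96 and 33.5 to 2.01, 2.25 and 1.99 CPM (−4.09 ± 0.087), with 1.85 CPM in YTHDF1 KO and 31.4 CPM in siARID1A. RBM20, a splicing factor, fell by 4.02, and UNC13D, which primes secretory vesicles, fell by 4.05 on the log2 scale. PKDCC, TNS1 and NRP2 lay on chromosome 2, whose genes were lower as a whole. PKDCC is a secreted kinase and went from 103, 127 and 89.4 to 4.17, 2.81 and 3.45 CPM (−4.95). TNS1, which links focal adhesions to actin, went from 72.3, 81.8 and 60.5 to 2.19, 4.59 and 4.84 CPM (−4.18), and the semaphorin co-receptor NRP2 from 568, 596 and 555 to 35.1, 41.5 and 41.4 CPM (−3.86).

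Some genes were set apart from each of the other groups: 646 (3.49%) were higher in the combined group than in all 3 others and 508 (2.74%) lower. Without combined replicate 1 the latter count was 334. Outside the interferon genes, PLEKHA4 went from 0.724, 0.442 and 0.596 CPM in WT to 43.3, 37.2 and 39.04 CPM, with 6.63 CPM in YTHDF1 KO and 3.87 CPM in siARID1A. NR4A2, an orphan nuclear receptor encoded on chromosome 2, went from 6.87, 7.25 and 7.13 to 136, 107 and 126 CPM, with 32.8 and 27.9 CPM in the single-change groups. For both genes every combined library exceeded every other library, and the interaction was not called.

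Genes lower than in all 3 other groups included OLFML3, KRT80, NPR3, ADAM12, EPHB2 and STRA6. OLFML3, a secreted matrix protein, stood at 82.04, 71.97 and 77 CPM in WT, 7.43, 7.37 and 7.35 CPM in YTHDF1 KO, 25.01, 25.2 and 20.5 CPM in siARID1A and 1.19, 2.58 and 2.62 CPM in the combined group. The keratin KRT80 stood at 299.8, 311 and 282 CPM in WT, 76.1, 74.2 and 78.3 CPM in YTHDF1 KO, 55.5, 57.6 and 36.7 CPM in siARID1A and 9.94, 18.4 and 14.03 CPM in the combined group. The ephrin receptor EPHB2 fell from 236, 255 and 199 to 33.95, 45.97 and 45.6 CPM (−2.45) and the retinol transporter STRA6 from 63.3, 69.7 and 56.6 to 12.7, 17.7 and 13.8 CPM (−2.10). ADAM12, a metalloprotease, changed by −3.48 and the natriuretic peptide receptor NPR3 by −2.81. No library of the combined group reached the lowest WT library in any of the 6.

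A549 carries a KEAP1 mutation that keeps NRF2 active, so its detoxification enzymes are abundant. Of 35 NRF2 target and detoxification genes, 22 fell and 7 rose (median −0.53), against 25.9% and 25.6% of all genes. AKR1B10, an aldo-keto reductase, stood at 2789, 2215 and 2834 CPM in WT and 396, 308 and 333 CPM in the combined libraries (−2.92 ± 0.16), with 346 CPM in YTHDF1 KO and 2856 CPM in siARID1A. AKR1C2 went from 4161, 3329.9 and 4236 to 957, 935 and 921 CPM (−2.06) and AKR1C3 from 1555, 1206 and 1554 to 540.3, 517 and 510.2 CPM (−1.46), and reads of these near-identical genes may be shared. The epoxide hydrolase EPHX1 went from 344, 282 and 352 to 79.6, 73.6 and 72.7 CPM (−2.11). In all 4 genes WT replicate 2 was the lowest WT library and still lay far above the combined ones.

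Of 22 cytochrome P450 and conjugation enzymes 13 fell and 5 rose. CYP24A1, which inactivates vitamin D, went from 1138 to 552 CPM (−1.04), while CYP1B1 on chromosome 2 rose by 1.14 and UGT2B7 by 1.83. Of 3 metallothioneins tested, MT1X and MT1F were called lower (−1.40 and −1.19) at levels of about 1 CPM, and the call of MT1F was lost without combined replicate 3 (adjusted p = 0.0769). The simple-epithelium keratins, among the most abundant transcripts of A549, were lower as well. KRT8 went from 5308, 4093 and 4987 to 1835, 1843 and 1734 CPM (−1.41 ± 0.12) and KRT18 from 2568, 1745 and 2543 to 1195, 1108 and 1075 CPM (−1.02 ± 0.19).

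Of 25 keratins and junction proteins 14 fell and 7 rose. The desmosome proteins PKP2 and PKP3 went from 45.5 and 58.5 CPM to 8.25 and 19.2 CPM (−2.46 and −1.61). CLDN1, a tight junction protein, rose from 79.9, 85.3 and 102 to 407, 385 and 401 CPM (2.16). The A549 and epithelial identity list held 1 rise (2 with library totals) and 5 falls among 10 genes.

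Of 19 epithelial and mesenchymal markers 11 fell and 5 rose, and those that fell included mesenchymal ones. TGFBI, a secreted adhesion protein, went from 2522, 2461 and 2223 to 388, 489 and 434 CPM (−2.46 ± 0.11). Fibronectin (FN1, chromosome 2) fell by 1.77 and N-cadherin (CDH2) fell by 1.35, while the repressor ZEB2, also on chromosome 2, rose by 1.54.

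Matrix genes split, with 15 of 35 higher and 12 lower. COL5A2, a fibrillar collagen on chromosome 2, rose from 179, 219 and 185 to 618, 738 and 703 CPM (1.82), although the chromosome as a whole was lower. Its neighbour COL3A1 went from 0.174 to 5.78 CPM (5.12), the proteoglycan lumican (LUM) from 0.0837 to 9.02 CPM (6.67), and the basement membrane chain COL4A5 from 8.04 to 36.5 CPM (2.18). Stromal markers were mixed as well. ACTA2, smooth muscle actin, rose from a mean of 3.38 to 13.1 CPM (1.95), although it shares 30.1% of its exon bases with other genes, and the pericyte receptor PDGFRB rose from 16 to 53 counts per group. PDGFRA had 28 and 50 counts and DCN 4 and 32, while COL1A1 had means of 43.1 CPM in WT and 28.8 CPM in the combined group and was not called. The part of other cell types in these values was not tested. Of 20 integrins 9 rose and 6 fell: ITGA2, a collagen receptor, rose by 2.08, ITGA10 by 3.87 and ITGB8, which activates TGF-beta, by 3.80, while ITGA4 (chromosome 2) fell by 2.47. Without chromosomes 2 and 9 only 2 integrins were lower.

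Of 23 TGF-beta pathway genes 15 fell and 4 rose. FST, the secreted inhibitor of activins, showed the largest rise, from 2.37, 2.76 and 2.13 to 163, 185 and 168 CPM (6.14 ± 0.12), with 65.2 CPM in YTHDF1 KO and 12.1 CPM in siARID1A. INHBB, an activin subunit on chromosome 2, fell from 51.5, 55.1 and 53.1 to 6.46, 6.58 and 6.95 CPM (−3.00 ± 0.042). The receptor TGFBR2 fell by 1.13 and its co-receptor TGFBR3 rose by 1.27. Of 24 Hippo-YAP target genes 17 fell and 5 rose. Those with the smallest p were IGFBP3, a growth factor carrier that went from 347, 411 and 361 to 24.1, 30.04 and 25.6 CPM (−3.81), GADD45B (−1.27), AJUBA (−0.94) and WWC1 (−0.75).

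Genes induced by growth factor and MAP kinase signalling were higher: 17 of 27 rose and 3 fell (median 0.89). The ERK phosphatase DUSP4 stood at 160.1, 162 and 162 CPM in WT and 487, 486 and 485 CPM in the combined group (1.59), and DUSP6 at 3.496, 2.099 and 1.98 and 20.6, 19.8 and 19.1 CPM (2.97). The ETS factor ETV4 rose by 1.88 and the immediate early gene IER2 by 1.28. DUSP6 and IER2 share 40.5% and 30.8% of their exon bases with other genes. Of 12 EGF receptor genes and ligands 5 rose and 4 fell. The ligands EREG and HBEGF rose by 1.63 and 1.92, the receptor's feedback inhibitor ERRFI1 rose by 0.90, and the ERBB3 ligand NRG1 fell by 0.92.

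Prostaglandin genes held a large rise of the inducible cyclooxygenase and falls of other enzymes, with 5 of 12 higher and 5 lower. PTGS2 stood at 10.6, 12.5 and 16.4 CPM in WT, 165, 166 and 170.2 CPM in YTHDF1 KO, 237, 191 and 344 CPM in siARID1A and 509.8, 402 and 461 CPM in the combined group (5.13 ± 0.21). HPGD, which inactivates prostaglandins, rose by 1.33. PTGR1 and PTGES2, both on chromosome 9, fell by 1.53 and 1.34, and without chromosomes 2 and 9 the falls numbered 2. In coagulation, factor V (F5) fell from 18.9 to 0.371 CPM (−5.61). The urokinase receptor PLAUR rose from 13.5 to 88.3 CPM (2.72) and the tissue factor pathway inhibitor TFPI rose by 1.98. In the complement and coagulation list of 25 genes 10 rose and 9 fell.

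Mitotic genes were lower and p53 targets higher. Of 40 G2/M and mitosis genes 34 fell and none rose (median −0.51). CENPF, a kinetochore protein, stood at 304, 315 and 327 CPM in WT and 149, 179.8 and 176 CPM in the combined group (−0.91), and the spindle factor TPX2 at 305, 279.8 and 298 and 164, 172 and 158 CPM (−0.84). BUB1 and NCAPH, both on chromosome 2, fell by 1.04 and 1.03. Without chromosomes 2 and 9, 31 of 37 mitotic genes were lower. Of 47 replication and S phase genes 26 fell and 3 rose (median −0.23), but with library totals these counts were 17 and 6. The licensing subunit MCM5 fell by 0.69, while cyclin E1 (CCNE1) rose by 1.00.

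Replication-dependent histone transcripts were higher. Of 20 tested 10 rose and none fell (median 0.58), those with the smallest p being H4C8 (3.55 to 7.67 CPM), H1-2 (15 to 27.7 CPM), H2AC6 (19.3 to 29.01 CPM) and H2BC5 (10.9 to 19.2 CPM). SLBP, which binds the stem-loop that ends histone messages, fell from 59.4, 65.1 and 64.9 to 29.3, 29.99 and 30.2 CPM (−1.08). Such messages lack poly(A) tails, so how much of them is seen depends on how the RNA was selected.

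Of 36 p53 target genes 24 rose and 3 fell (median 0.41), and the falls numbered 1 with library totals or without combined replicate 1. The p53 ligase MDM2 stood at 90.2, 85.8 and 89.8 CPM in WT and 201, 164 and 201 CPM in the combined group (1.09), with 266 CPM in siARID1A alone. FDXR went from 50.4, 41.6 and 38.1 to 108, 86.8 and 95.4 CPM (1.15), and TP53INP1 and TIGAR rose by 1.21 and 1.02. Relative to siARID1A, 27 of the 36 were lower in the combined group (17.2% of all genes) and 2 higher. The interaction, by which the change with both differs from the sum of the single changes, was below 0 for 26 of them and above 0 for none, where 8.22% and 8.87% of all genes were called. For G2/M genes it was above 0 for 21 of 40 and below for none, and for replication and S phase genes above 0 for 24 of 47 and below for 1. The count of 21 was 13 without YTHDF1 KO replicate 1, 13 without siARID1A replicate 3 and 11 without combined replicate 2.

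**Figure D4:**
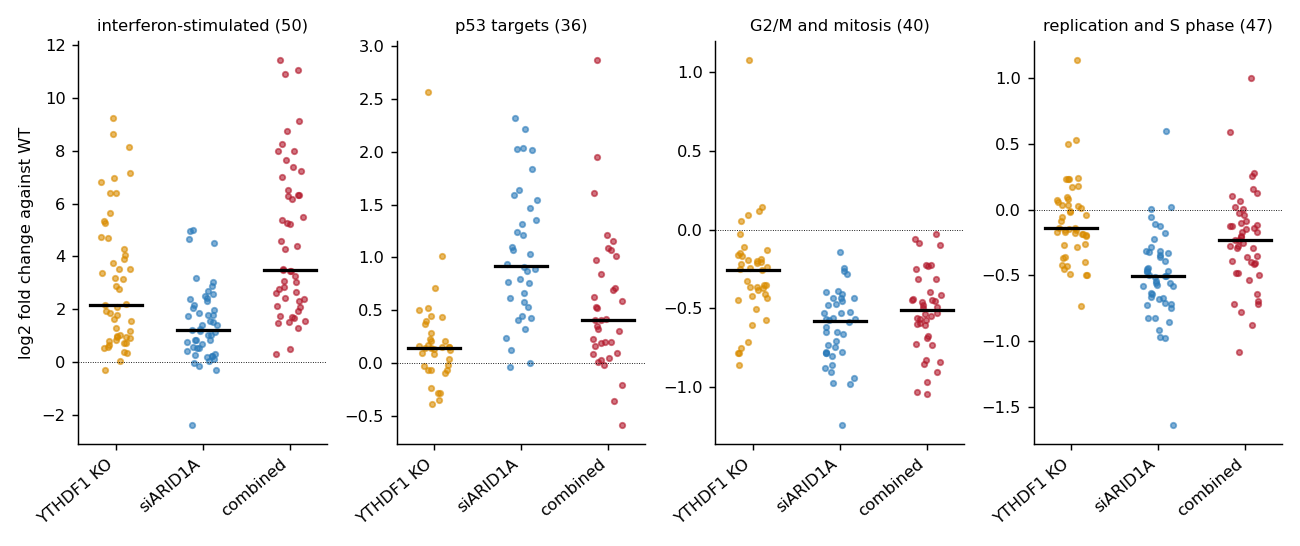
Log2 fold change against WT (vertical axis, with its own scale in each panel) of every tested member of 4 lists in YTHDF1 KO (orange), siARID1A (blue) and the combined group (red), which share the WT libraries. Black lines are medians. For interferon-stimulated genes the combined median (3.50) lies above both others, and for p53 targets (0.41) it lies between those of YTHDF1 KO (0.15) and siARID1A (0.92).

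R-loop processing factors, which the series title brings in, were lower more often than higher: 21 of 39 fell and 3 rose (median −0.28), though with library totals 12 were lower and 7 higher. The helicases DDX21 and DDX1 (chromosome 2) went from 477 and 256 CPM to 286 and 151 CPM (−0.74 and −0.76). The nuclease subunit ERCC4 rose by 0.93, and SLFN11 belongs to the same list. Of 47 genes of DNA break repair and checkpoints 16 (34.0%) fell and 11 (23.4%) rose, against 25.9% and 25.6% of all genes. With library totals 14 fell and 17 rose. The end-joining factor Ku80 (XRCC5, chromosome 2) fell from 546, 496 and 544 to 107, 137 and 119.96 CPM (−2.12 ± 0.11), with 349.9 CPM in YTHDF1 KO and 131 CPM in siARID1A. The Fanconi genes FANCD2 and FANCC changed by −0.69 and −0.84, and the checkpoint kinase CHEK2 rose from 16.9 to 40.5 CPM (1.26).

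Of 25 SWI/SNF subunits tested, ARID1A included, 5 rose and 9 fell, and the rises numbered 2 without WT replicate 3 or combined replicate 3 and 3 without combined replicate 2. The ATPase SMARCA2 (chromosome 9) fell from 61.7 to 33.2 CPM (−0.89), PHF10 fell by 0.60 and BRD9 fell by 0.51. Of 25 m6A writers, erasers and readers, YTHDF1 included, 11 fell and 6 rose. With library totals 2 fell, YTHDF1 among them, and 8 rose. Without combined replicate 1 the rises numbered 3. RBM15B, which guides the writer complex, changed by −0.33, and the reader FMR1 by 0.43. RBMX changed by −0.27, a call that was lost with library totals (adjusted p = 0.0751).

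Of 28 ATF4 target and serine synthesis genes 21 fell and 3 rose (median −0.57), and 5 rose without WT replicate 3. The serine pathway enzyme PSAT1 (chromosome 9) went from 606, 601 and 717 to 276, 303 and 278 CPM (−1.17), mitochondrial MTHFD2 (chromosome 2) from 275 to 120.3 CPM (−1.19), VLDLR from 81.1 to 28.4 CPM (−1.51) and the amino acid transporter SLC7A5 from 4552 to 2179 CPM (−1.06). Without chromosomes 2 and 9, 17 of 24 such genes were lower. Of 22 unfolded protein response genes 14 fell and 6 rose, and with library totals 7 fell and 7 rose. The chaperone HSPA5 fell by 0.71 and PDIA6 fell by 1.45, while the sensor ERN1 and the co-chaperone DNAJB9 rose by 1.38 and 1.23. Of 18 heat shock genes 6 rose and 6 fell (33.3% each, against 25.6% and 25.9% of all genes).

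Metabolic lists were divided. Of 29 glycolysis and hypoxia genes 16 fell and 9 rose: the glucose transporter SLC2A1 fell from 243, 223 and 203 to 57.6, 76.4 and 68.3 CPM (−1.73) while its relative SLC2A3 rose from 48.6, 46.3 and 50.2 to 299, 297 and 296 CPM (2.62). Carbonic anhydrase CA12 fell by 1.96 and enolase ENO2 rose by 0.94. Of 29 cholesterol and fatty acid synthesis genes 11 rose and 10 fell, and the rises numbered 7 without combined replicate 2 or 3. The citrate lyase ACLY fell from 1787 to 873 CPM (−1.03), and the desaturase SCD rose from 1492 to 2693 CPM (0.85). Counts of abundant housekeeping genes moved with WT replicate 2, the library that stood apart. Of 77 ribosomal protein genes 16 fell and none rose (median −0.08), but 54 fell without that library, 5 rose without WT replicate 1, and 10 rose with library totals. Of 13 mitochondrially encoded transcripts 1, MT-ND4, was called lower (11479, 7160.1 and 11799 CPM in WT and 8414, 8049 and 7942 CPM in the combined libraries), and 10 were without WT replicate 2. The MT-ND4 call was lost in 11 of the alternatives, among them library totals (adjusted p = 0.188). Of 45 nuclear-encoded respiratory chain genes 14 fell and 5 rose, and 9 fell and 8 rose with library totals. The rises numbered 3 without WT replicate 2 or without combined replicate 1.

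Lysosomal and autophagy genes were higher, with 26 of 37 up and 6 down (median 0.46). The protease CTSL (chromosome 9) rose from 159, 159 and 149 to 809, 690.3 and 722 CPM (2.25 ± 0.074), and GABARAPL1 and TPP1 rose by 1.12 and 0.97. Of 31 BCL2 family and death receptor genes 13 (41.9%) rose and 7 (22.6%) fell, against 25.6% and 25.9% of all genes. The falls numbered 3 with library totals and 4 without combined replicate 3. The pro-apoptotic BCL2L11 and BOK, both on chromosome 2, fell by 2.31 and 1.21, while gasdermin D (GSDMD) and the inflammatory caspase CASP4 rose by 1.26 and 1.26.

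Genes of chromosomes 2 and 9 were lower as a group. The median of the 1231 genes tested on chromosome 2 was −0.44 relative to all others, a ratio of 0.739, and that of the 712 on chromosome 9 was −0.39, a ratio of 0.761. The other 21 chromosomes ranged from −0.11 to 0.12. On chromosomes 2 and 9 together 51.4% of genes were called lower and 11.8% higher, against 22.9% and 27.5% elsewhere. In windows of about 40 neighbouring genes, all 31 of chromosome 2 were below 0 (−1.01 to −0.08). On chromosome 9 the 12 windows from base 72900662 (GRCh38) onward lay between −0.82 and −0.34, and the 6 before it between −0.18 and 0.29. That base was set from these same values, as the start of the first clearly lower window, so the split is a description. The relative medians of chromosome 2 were −0.42 in YTHDF1 KO and 0.02 in siARID1A, and those of chromosome 9 were −0.36 and −0.41. Of the chromosome 9 genes named above, SMARCA2, VLDLR, CD274, IFNB1 and RIGI lie before that base and PSAT1, CTSL, FANCC, PTGR1, HSPA5 and PTGES2 beyond it. DNA copy number was not measured in these files, and its part in the gene values was not tested.

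**Figure D5:**
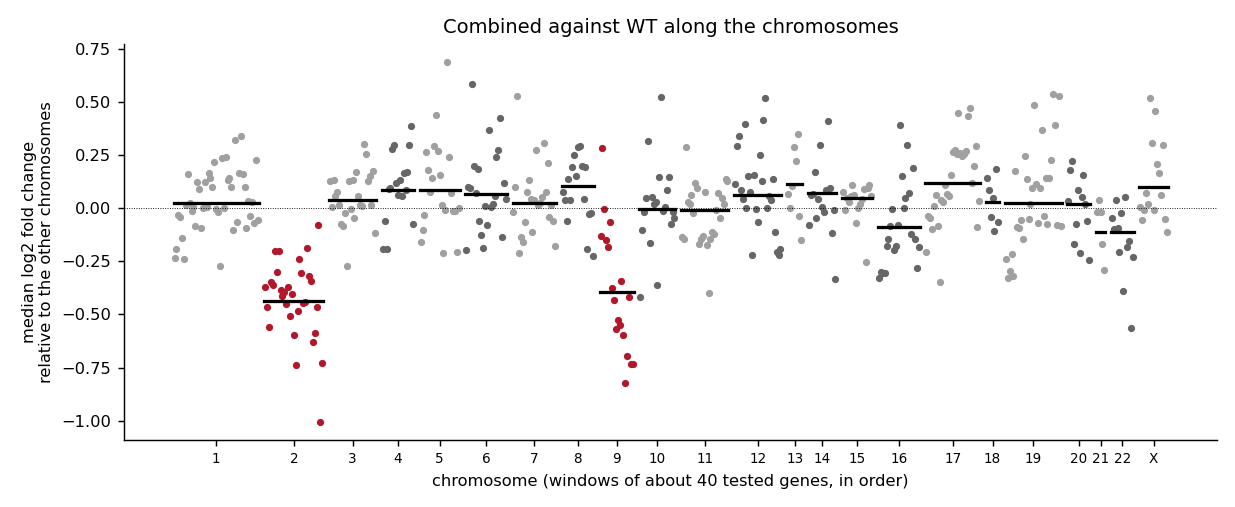
Median log2 fold change of the combined group against WT in windows of about 40 neighbouring tested genes (points), relative to the genes of the other chromosomes, in order along each chromosome. Black lines are whole-chromosome medians. Chromosomes 2 and 9 (red) stand at −0.44 and −0.39, and the others between −0.11 and 0.12.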

How the data were processed

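Libraries were TruSeq stranded RNA-seq of A549 cells, 3 per group. The authors deposited whole-number read counts per gene, and per the submitters' processing notes reads were trimmed with Trim Galore 0.6.6, aligned to GRCh38 with STAR 2.7.0d and counted with featureCounts 2.0.1 (edgeR 3.32.1 is also named there). The annotation release and the strand setting are not given in the sources used here.

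From these counts, all 12 libraries were fitted in edgeR 4.0.16 (R 4.3.3) with 1 coefficient per group, filterByExpr (18524 genes kept, 42093 left out), TMM factors (0.912 to 1.055), robust dispersions and the quasi-likelihood F test, with Benjamini-Hochberg adjustment over all genes tested. The biological coefficient of variation was 9.44%. SEs come from the replicate SDs of log2 CPM. The script was tested on simulated data. Depth ran from 30220717 to 45042635 counts. Bounds for genes without WT counts use a floor of 3 counts over the group, and intervals and floors cover counting error only.

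Named genes were YTHDF1, ARID1A and relatives, the 12 largest rises and falls (mean of at least 10 CPM over both groups, no overlap), the 8 most abundant genes with 0 to 3 WT counts, the 6 most different each way from all 3 groups, the 4 largest interactions each way, up to 4 members per list with the smallest p, and genes of the series' theme. The members and the 43 gene lists were chosen with earlier results of these data known. IRF9, ZBP1 and single marker genes were named after their values were seen. Some genes that the rule takes are not reported here. Alternatives were other scalings, filters, DESeq2, a replicate block, leaving out chromosomes 2 and 9 and leaving out each library. Symbols and positions came from RefSeq and GENCODE tables (60261 and 58542 IDs matched).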

Additional observations from a re-analysis of the deposited data

Results flagged for a closer look

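The combined group can be set against the sum of the single changes by an interaction term, which asks whether ARID1A silencing acted differently in YTHDF1 knockout cells than in unmodified cells. All results below were taken up because that test, edgeR's quasi-likelihood F test with adjustment over all genes, found a difference. It was above 0 for 1643 genes (8.87%) and below 0 for 1523 (8.22%), and for 1315 and 1319 without chromosomes 2 and 9. The silencing was not equal, with mean ARID1A at 42.5 CPM in siARID1A and 54.2 CPM in the combined group. Chromosome 9 was lower than in WT in YTHDF1 KO (−0.36), siARID1A (−0.41) and the combined group (−0.39), so the sum of the single changes counts its shift more than once. The part of both in the called interactions was not tested. Groups of 3 libraries were not tested for single outlying samples.

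Of the genes with at least 10 CPM, FER1L6 (8.65), PKDCC (2.98) and NTRK3 (2.81), described above among the largest falls, had the largest positive terms of the named genes. They were followed by ASS1 (2.57), the argininosuccinate synthase on chromosome 9, TINAGL1 (2.39) and IQGAP2 (2.195). FER1L6 was almost absent in both single-change groups and NTRK3 was low in YTHDF1 KO. The part of such low levels in the terms was not tested. A term above 0 does not by itself show that the changes reinforced each other. ASS1 stood at 35.2 CPM in WT, 6.14 CPM in YTHDF1 KO, 9.62 CPM in siARID1A and 9.98 CPM in the combined group. The means of IQGAP2 in the same order were 22.2, 5.11, 8.84 and 9.37 CPM. The largest negative terms were those of ANKRD1 (−3.52), a YAP target, FGFBP1 (−2.96), MYPN (−2.89) and PTGS2 (−2.84). ANKRD1 stood at 2.46 CPM in WT, 5.77 CPM in YTHDF1 KO, 29.1 CPM in siARID1A and 5.997 CPM in the combined group. For PTGS2 both single changes and the combination were above WT, and the combination was below the sum of the single changes on the log2 scale.

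In 11 gene lists at least 40% of the members tested had a called interaction in 1 direction. It was below 0 for 5 of 12 chemokines, 9 of 21 NF-kB genes, 26 of 36 p53 targets, 15 of 35 matrix genes and 7 of 12 EGF receptor family genes. It was above 0 for 21 of 40 G2/M genes, 24 of 47 replication and S phase genes, 12 of 29 cholesterol and fatty acid genes, 14 of 22 unfolded protein response genes, 12 of 28 ATF4 target and serine synthesis genes and 5 of 12 prostaglandin genes. The prostaglandin count was 3 among genes with a mean of at least 1 CPM and 2 without chromosomes 2 and 9. The ATF4 count was 8 without chromosomes 2 and 9, and the cholesterol count was 9 without YTHDF1 KO replicate 3. The NF-kB count was 7 without YTHDF1 KO replicate 2, the G2/M count 11 without combined replicate 2 and the matrix count 13 at its lowest. Not every list therefore kept 40% in each alternative. Among interferon-stimulated genes the interaction was above 0 for 16 of 50 and below 0 for 11. Both this list and the chemokine list hold 3 genes with 0 to 3 counts over the WT libraries. For those genes the WT part of the interaction is a fitted value near 0 and no measured level.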

How the results depend on the processing

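The counts of genes called higher and lower, 4742 and 4795 in the fit reported, were 4817 and 4701 with RLE size factors, 4895 and 4757 with DESeq2, 4793 and 4533 without the low-count filter, 4314 and 4410 with WT and combined libraries only, and 4055 and 4130 without chromosomes 2 and 9. Restricting to a mean of at least 1 CPM left 13932 genes tested. Of these, 1145 were higher and 839 lower by more than 1, against 1752 and 1355 in the fit reported. All calls numbered 4241 higher and 4270 lower, so the counts past 1 changed more than the counts of all calls. Leaving out each library in turn gave 4226 to 4768 genes higher, 4250 to 4820 lower, 494 to 724 higher than all 3 groups and 334 to 634 lower than all 3, the smallest being without combined replicate 1 (the cause was not tested). It gave 1259 to 1733 interactions above 0 and 1239 to 1758 below. The changes of YTHDF1 and ARID1A stayed between −1.54 and −1.49 and between −1.66 and −1.50. YTHDF2, not called, changed sign to 0.0015 with RLE size factors and with DESeq2, 0.1294 with library totals, 0.0031 without the filter, and 0.0009 with a mean of at least 1 CPM, and ranged from −0.0211 to 0.0117 with each library left out. The call of MT-ND4 was lost in 11 alternatives, that of RBMX with library totals and that of MT1F without combined replicate 3, and no other named gene lost its call or changed sign. Same-numbered WT and combined libraries did not deviate together (correlations 0.03, −0.001 and −0.02 over genes), so the numbers do not pair them. With the replicate number as a block, 4648 genes were higher and 4698 lower.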

Other observations

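Genes of lung and endodermal lineages moved in both directions, with 13 of 24 tested higher and 7 lower in the combined group than in WT (median 0.36). Of 29 axon guidance and neurotrophin receptor genes 8 (27.6%) rose and 11 (37.9%) fell, against 25.6% and 25.9% of all genes, and 7 fell with library totals.

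By annotated type, 29.9% of 14048 protein-coding genes tested were called higher and 28.7% lower. Of 999 long intergenic RNAs 15.5% were higher and 20.7% lower, and of 1306 antisense genes 10.7% and 17.5%. Of 173 sense intronic RNAs 2.89% were higher and 16.8% lower. The strand setting of the counting is not given, so reads of antisense and intronic genes may include those of their host genes, and the part of depth in these shares was not tested.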
